A study of Homo sapiens with 6 samples.

Results

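The genes described here are the replication-dependent histone genes, measured by RNA sequencing in H9 cells after a knockdown of alpha satellite RNA. Members were the rows of the gene count table whose symbol begins with HIST1H, HIST2H, HIST3H or HIST4H. There were 89 such rows among 53719, and all carried the older histone symbols. By class they comprised 8 rows of the linker histone H1, 22 of H2A, 26 of H2B, 17 of H3 and 16 of H4. GENCODE release 29 lists 71 of them as protein-coding and 18 as pseudogenes.

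H9 is an established human embryonic stem cell line, grown here in RSeT, a commercial medium for a naive state. Both groups received a gapmer, an antisense oligonucleotide that directs RNase H to its target RNA, and RNA was extracted 48 h after transfection. The knockdown group (libraries a, b and c, labelled Sense3 and "ALR Knockdown") received a gapmer against ALR, the alpha satellite repeat of human centromeres, and the control group (libraries a, b and c) a control gapmer. The labels name a single cell line and do not say whether the 3 libraries of a group came from separate cultures, so the p-values measure the spread between these libraries, which may be technical. Alpha satellite RNA itself was not analysed here.

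Replication-dependent histone genes lie in clusters, mostly lack introns, and are expressed mainly in S phase, when new DNA must be packed into nucleosomes. H2A, H2B, H3 and H4 form the core of the nucleosome, and H1 binds the linker DNA between nucleosomes. Their mRNAs usually end in a conserved stem-loop in place of a poly(A) tail. Stem-loop binding protein (SLBP) holds that stem-loop, and the U7 small nuclear RNP guides the cut that forms the end. How the kit was used to enrich RNA (by poly(A) selection or by removal of rRNA) is not given in the sources used here, and this bears on how well transcripts without a tail are counted.

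The stem-loops of the transcripts are shown because they set the members apart from other mRNAs. In the GENCODE 29 transcripts a histone stem-loop was found in 35 members, 32 of them protein-coding. Of the 39 coding members without a match, 35 have gene models that stop at the end of the coding sequence, so the window that would hold it is not in the model. The stem-loops came in 6 distinct forms of 16 bases. Below, the capitals mark the 16 bases of the stem and loop, and the lower-case letters are the 5 bases on either side, written 5′ to 3′ as DNA.
HIST2H2AA4: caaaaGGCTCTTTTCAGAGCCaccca
HIST1H2BL: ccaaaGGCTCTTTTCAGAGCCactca
HIST2H3C: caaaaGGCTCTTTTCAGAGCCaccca
HIST3H3: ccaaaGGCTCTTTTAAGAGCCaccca
HIST1H2AG: ccaacGGCTCTTTTCAGGGCCaccca
HIST1H3E: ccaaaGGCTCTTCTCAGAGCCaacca
HIST1H4B: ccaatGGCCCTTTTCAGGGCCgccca
HIST2H4A: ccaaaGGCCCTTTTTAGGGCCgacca
The form of HIST2H2AA4, HIST1H2BL and HIST2H3C was the most frequent, in 6 members of H2A, 9 of H2B and 3 of H3. The form of HIST3H3 occurred in 3 members of H2B and 2 of H3, that of HIST1H2AG in 1 of H2A and 2 of H2B, and that of HIST1H3E in 1 of H3. All 8 H4 members with a stem-loop carried one of the forms of HIST1H4B (5 members) and HIST2H4A (3 members), and no member of another class did.

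Promoters are shown because members of a class share elements there. RefSeq promoters (build GRCh38.p14, 250 bases before to 50 bases after the start, 300 in all) were matched for 61 of the 89 members. The member printed for each class is that with the smallest p among members with an entry, leaving out H2A, whose member HIST1H2AI has a window that overlaps that of its divergent neighbour HIST1H2BL. HIST1H2BK was added as the H2B member with the highest level. Capitals mark the octamer ATTTGCAT, the TATA box TATAAA and the CCAAT box CCAAT on either strand, so a match on the other strand appears as its reverse complement. The coordinates are those of HIST1H1B (H1, chr6:27867539-27867838, minus strand), HIST1H2BK (H2B, chr6:27146809-27147108, minus strand), HIST1H2BL (H2B, chr6:27807880-27808179, minus strand), HIST2H3D (H3, chr1:149813644-149813943, minus strand) and HIST1H4B (H4, chr6:26027234-26027533, minus strand).
HIST1H1B: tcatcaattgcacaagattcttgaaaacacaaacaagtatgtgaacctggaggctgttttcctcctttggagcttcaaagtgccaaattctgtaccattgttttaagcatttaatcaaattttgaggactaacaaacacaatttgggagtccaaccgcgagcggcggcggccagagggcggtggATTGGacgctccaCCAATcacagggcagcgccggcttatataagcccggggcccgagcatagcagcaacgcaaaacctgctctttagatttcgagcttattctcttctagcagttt
HIST1H2BK: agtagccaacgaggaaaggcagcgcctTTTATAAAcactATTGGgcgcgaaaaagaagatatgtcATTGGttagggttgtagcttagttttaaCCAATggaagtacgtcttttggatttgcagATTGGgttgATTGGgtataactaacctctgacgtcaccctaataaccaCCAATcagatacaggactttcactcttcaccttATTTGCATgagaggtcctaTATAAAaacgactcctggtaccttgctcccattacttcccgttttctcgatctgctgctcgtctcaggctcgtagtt
HIST1H2BL: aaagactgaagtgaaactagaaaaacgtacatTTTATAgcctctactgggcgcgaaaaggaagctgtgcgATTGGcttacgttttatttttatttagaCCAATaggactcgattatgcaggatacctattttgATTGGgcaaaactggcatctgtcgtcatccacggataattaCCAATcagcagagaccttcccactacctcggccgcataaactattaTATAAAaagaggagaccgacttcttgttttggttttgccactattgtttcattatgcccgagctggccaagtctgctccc
HIST2H3D: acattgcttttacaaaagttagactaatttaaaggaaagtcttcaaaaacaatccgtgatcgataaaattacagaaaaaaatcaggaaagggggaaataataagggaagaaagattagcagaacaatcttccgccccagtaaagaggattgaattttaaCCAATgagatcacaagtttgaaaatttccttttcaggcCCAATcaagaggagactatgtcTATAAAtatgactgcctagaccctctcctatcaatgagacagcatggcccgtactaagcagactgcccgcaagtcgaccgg
HIST1H4B: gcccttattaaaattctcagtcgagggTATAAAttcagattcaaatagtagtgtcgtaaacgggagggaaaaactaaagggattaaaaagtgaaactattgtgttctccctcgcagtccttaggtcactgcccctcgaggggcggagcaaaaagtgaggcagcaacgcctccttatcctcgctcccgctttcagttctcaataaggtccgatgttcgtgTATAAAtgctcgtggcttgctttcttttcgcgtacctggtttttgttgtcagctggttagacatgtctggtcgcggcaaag
The octamer, the binding sequence of OCT factors, was present in 78.6% of 14 H2A promoters and 77.8% of 18 H2B promoters, against 1.77% of all 35116 promoters of the same length. It was found in 1 of 10 H3 promoters, that of HIST1H3D, whose RefSeq window is the same as that of the H2A gene HIST1H2AD, and in none of the 6 H1 or 13 H4 promoters, and HIST1H2BL is among the H2B members without these letters. Divergent H2A and H2B neighbours can have overlapping windows, as HIST1H2AE and HIST1H2BG do, so the same octamer can count in both classes. TATAAA was present in 65.6% of the 61 member promoters against 11.5% of all. CCAAT was present in 83.6% against 34.6%. Every H1, H2A, H2B and H3 promoter held CCAAT, whereas 23.1% of the H4 promoters did. Matches can share bases, as TATAAA does with its own reverse complement in HIST1H2BK, and a match describes the sequence only.

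The libraries held between 25087629 and 36576752 counts. Knockdown library a had counts in 29678 rows, against 25898 to 26788 in the other libraries. The pluripotency genes LIN28A (1757 CPM ± 141 in the knockdown, 1541 CPM ± 18.2 in the control, SD, n = 3) and NANOG (194 CPM ± 12.4 and 181 CPM ± 5.21) were present in all libraries. SOX2, also a marker of these cells, was listed at 0 in all 6 libraries, as were CDK2 and ASF1A, so a 0 in this table does not by itself show absence of the transcript. Naive-state genes summed to 66.2 to 73.5 CPM in the knockdown and 64.8 to 70.6 CPM in the control libraries, with 5 of 7 passing the filter on low counts and KHDC1L at 0. The 4 trophoblast genes with a row summed to at most 0.837 CPM in any library. Of 5 fibroblast genes, COL1A1 and COL1A2 passed the filter on low counts, while COL3A1, DCN and LUM did not. The 5 fibroblast genes summed to 86.0 to 95.1 CPM in the knockdown and 90.1 to 103 CPM in the control, and COL1A2 stood at 67.0 CPM ± 6.08 against 77.0 CPM ± 5.28 (SD, n = 3), -0.20 in log2 (edgeR adjusted p = 0.289). Their part in the histone values was not tested.

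Of the 89 members, 80 had a count in at least 1 library and 9 were at 0 in all 6. The filter on low counts kept 71 members for testing, 65 protein-coding genes and 6 pseudogenes, while the other 9 with counts reached at most 16 counts in a library. The 9 rows at 0 were 6 pseudogenes and the coding genes HIST1H2AD, HIST1H4I and HIST2H3PS2, and a count of 0 allows up to 3 counts per library, covering counting error only. HIST1H2AD shares 98.0% of its exonic bases with AL031777.3 on the same strand in GENCODE, and HIST2H3PS2 shares 99.5% with AC239798.4. HIST1H3D, however, shares 100% of its exonic bases with AL031777.3 on the same strand and had 1783 to 2582 counts a library. HIST1H2AM, with 0 to 9 counts, shares 88.0% with HIST1H3J on the same strand, a gene at 29.5 to 46.0 CPM. How reads in such shared bases were assigned is not given in the sources used here. HIST1H4I has no exonic overlap in GENCODE 29.

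Levels differed between members far more than between groups. Per kb of coding length and over all 6 libraries, HIST2H2AA3 and HIST2H2AA4, both H2A genes, were highest at 508 and 506 CPM per kb. The H3 genes HIST2H3A and HIST2H3C followed at 466 and 465 CPM per kb, and the H4 genes HIST2H4B and HIST2H4A at 453 and 452. Each of these pairs consists of near-identical copies on chromosome 1, so their counts cannot be assigned to a copy. The counts within a pair differ by at most 1.14% in any library, less than counting error would typically give for separate reads. The same reads may thus count in both rows, which would raise these levels and the sums that hold both copies. HIST2H2AA3 lay above HIST2H3A in 6 of 6 libraries, whereas HIST2H3A lay above HIST2H4A in 5 of 6, with means that differ by less than the spread over libraries. Among H1 genes HIST1H1B was highest at 370 CPM per kb (330 ± 18.4 in the control, SD, n = 3), above HIST1H1C at 293 (266 ± 9.82) and HIST1H1E at 220 (199 ± 19.99). Among H2B genes HIST1H2BK was highest at 363, followed by HIST2H2BF at 309 and HIST1H2BE at 284, in the same order in 6 of 6 libraries. The class medians were 212 CPM per kb for 6 H1 genes, 132 for 17 H2A genes, 204 for 18 H2B genes, 168 for 15 H3 genes and 174 for 15 H4 genes. Members known from testis were lowest among the tested coding members: HIST1H1T at 3.53, HIST1H2BA at 1.99 and HIST3H3 at 1.63 CPM per kb. Coding length omits untranslated bases, so members with longer transcript models, such as HIST2H2BF and HIST2H3C, stand higher on this scale than on 1 based on the whole transcript.

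**Figure D1:**
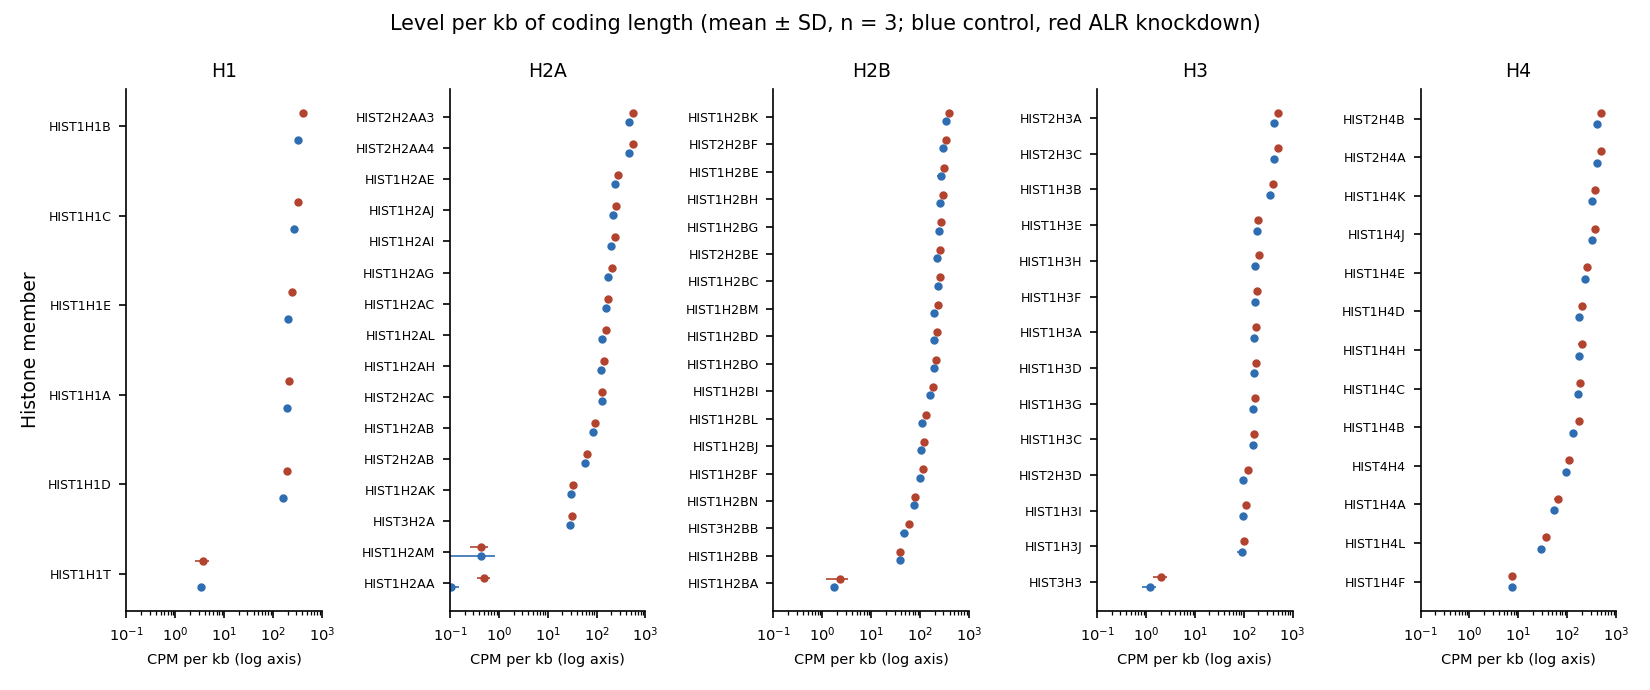
Level of each coding member per kb of coding length (x axis, CPM per kb on a log axis) by class, as mean ± SD over 3 libraries of the control (blue) and the knockdown (red). Members with a mean of 0.1 CPM per kb or less are not drawn, and levels run from below 1 to 508 CPM per kb while the group means of most members lie close together.

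The histone members together formed a larger share of the counts in the knockdown. In knockdown a, b and c they took 0.544%, 0.602% and 0.549% of all counts. For control a, b and c the shares were 0.517%, 0.468% and 0.447%. The Wilson 95% intervals, which cover counting error only, spanned 0.541% to 0.546% in knockdown a and 0.515% to 0.520% in control a, the closest libraries. All 3 knockdown libraries thus lay above all 3 control libraries, with means of 0.565% ± 0.0324 and 0.477% ± 0.0362 (SD, n = 3). On the TMM scale the summed level was 5291, 6080 and 5446 CPM in the knockdown and 5248, 4722 and 4501 CPM in the control, a ratio of 1.16 or 0.22 in log2. Reads of near-identical copies may count in both rows of a pair, so some reads may be repeated in these shares and sums. The separation of the groups rests on the narrow gap between knockdown a and control a. The log2 ratio of the sums ranged from 0.15 without knockdown b to 0.29 without control a. In bulk RNA, a larger number of cells in S phase and more histone RNA per cell cannot be told apart.

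No single member passed the test. None of the 71 tested members had an adjusted p under 0.05 (edgeR quasi-likelihood test, Benjamini-Hochberg adjustment), where 0.786% of all 19721 tested genes did (0.137% higher and 0.649% lower in the knockdown), and the smallest adjusted p of a member was 0.0586. The members leaned in a single direction: 69 of 71 had a log2 fold change above 0 (97.2%, against 54.4% of all genes), with a median of 0.19 against 0.02 for all genes. An unadjusted p under 0.05 was reached by 31 members (43.7%), all higher in the knockdown, where 6.68% of all genes were higher and 7.57% lower at that level. The knockdown libraries all lay above the control libraries for 22 members (31.0%, against 9.55% of all genes). They all lay below for 1, the pseudogene HIST1H2APS4 (9.37% of all genes). Without a filter 72 of 80 members were above 0 with a median of 0.19, and with a single copy of each near-identical pair 65 of 67 were above 0.

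**Figure D2:**
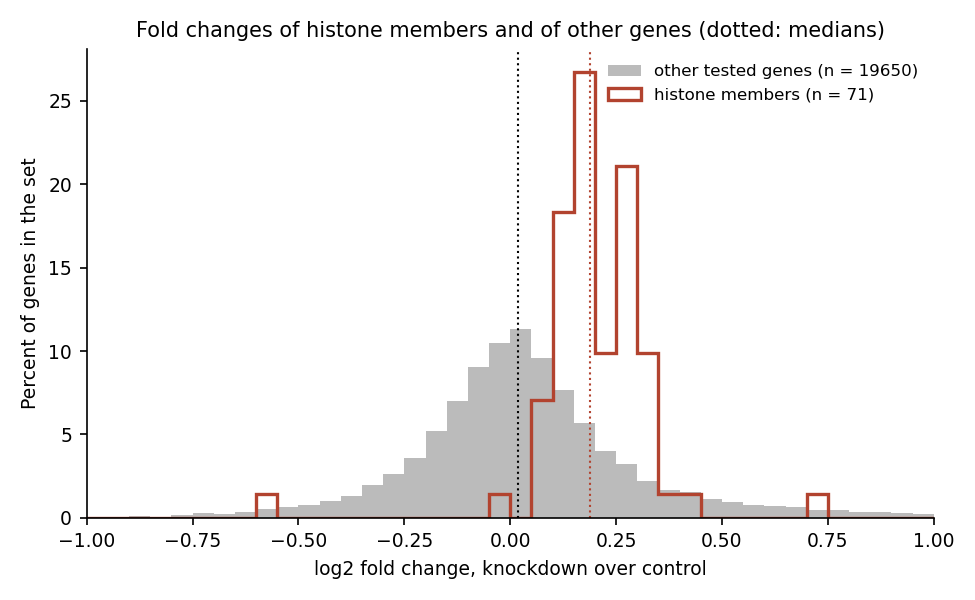
Distribution of the log2 fold change of the knockdown over the control (x axis) as percent of genes per bin (y axis), for 71 histone members (red outline) and 19650 other tested genes (grey), with dotted medians. The members' bins sit mostly between 0.05 and 0.45, to the right of the centre of the other genes, of which 267 lie beyond 1 in size and outside the axis.

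Other tests called some members, all higher in the knockdown. DESeq2 called 9 of the 71, namely HIST2H2AA3, HIST2H2AA4, HIST1H4B, HIST1H1B, HIST1H1D, HIST1H2AI, HIST2H3D, HIST2H4A and HIST2H4B, where 0.735% of all genes were called higher. EdgeR without a filter called 19 of 80, where 1.25% of all genes were called higher. Library size alone, upper-quartile scaling, limma-voom, the robust fit and a mean count of at least 50 each called 2, HIST2H2AA3 and its copy HIST2H2AA4, where 0.284%, 0.228%, 0.162%, 0.274% and 0.258% of all genes were called higher. The median member fold change, 0.19 with all libraries, was 0.12 without knockdown b and 0.28 without control a, and the members at an unadjusted p under 0.05 numbered 15 and 52 in those settings, 14 without control b and 15 without control c. Without knockdown c, edgeR called 6 members higher, against 0.963% of all genes, of which 4 were the H1 genes HIST1H1B, HIST1H1C, HIST1H1D and HIST1H1E and the others were HIST2H2AA3 and HIST2H2AA4.

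The core histones of class H2A held the members with the smallest p. In knockdown a, b and c HIST2H2AA4 (chr1:149851061-149851624) stood at 211, 239 and 214 CPM, and at 185, 171 and 174 CPM in the controls in the same order. Its groups did not overlap, and it differed by 0.32 ± 0.07 in log2 (SE; edgeR adjusted p = 0.0586). HIST2H2AA3 (chr1:149842188-149842736) differed from it in counts by at most 1.14% in any library and had a log2 difference of 0.32 (edgeR adjusted p = 0.0626). These are copies whose 50-base windows coincide, so the pair is a single measurement. Other H2A members were lower in fold change: HIST1H2AE measured 97.3, 119 and 106 CPM in the knockdown and 102, 97.9 and 86.5 CPM in the control. Its groups overlapped, and the log2 fold change was 0.17 (edgeR adjusted p = 0.394). Of the 15 tested H2A members, 14 had a fold change above 0, with a median of 0.17. Between groups, 6 of the 15 did not overlap with the knockdown higher, against 9.55% of all genes. These include both of the copies HIST2H2AA3 and HIST2H2AA4. The pseudogene HIST1H2APS4 did not overlap with the knockdown lower, against 9.37% of all genes. Summed over the class, H2A stood at 1076, 1236 and 1116 CPM in the knockdown and 1035, 952 and 927 CPM in the control, again without overlap.

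H2B, the partner of H2A in the nucleosome, had the most members, and 13.0% of those tested had separate groups, the smallest share of the classes. HIST1H2BL (chr6:27807444-27807931) measured 48.7, 51.5 and 51.2 CPM in the knockdown and 45.5, 38.5 and 40.4 CPM in the control. Its groups did not overlap, and its log2 fold change was 0.28 ± 0.08 (SE; edgeR adjusted p = 0.114). The most abundant member per kb, HIST1H2BK, measured 137, 159 and 145 CPM in the knockdown and 145, 126 and 117 CPM in the control. Knockdown a lay below control a for this gene, as it did for HIST2H2BF and HIST1H2BE, whose log2 fold changes were 0.21 and 0.22 (edgeR adjusted p = 0.288 and 0.327). HIST1H2BB was level between groups at 14.9 CPM ± 0.470 in the knockdown and 15.1 CPM ± 1.35 in the control (SD, n = 3), with a log2 fold change of -0.02 whose 95% interval ran from -0.23 to 0.19. HIST1H2BA, known from testis, measured 1.16, 1.05 and 0.396 CPM in the knockdown and 0.704, 0.580 and 0.688 CPM in the control, where 10 to 35 counts a library leave its fold change of 0.41 (SE 0.42) unresolved. In all, 22 of 23 tested H2B members had a fold change above 0, with a median of 0.19, and 3 (13.0%, near the 9.55% of all genes) did not overlap with the knockdown higher. The class sum was 1302, 1502 and 1354 CPM in the knockdown and 1369, 1173 and 1117 CPM in the control, where control a exceeded knockdown a and knockdown c.

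H3, whose tails carry many of the known chromatin marks, had 14 tested members, all with a fold change above 0. HIST2H3C (chr1:149839538-149841193) and its copy HIST2H3A (chr1:149852619-149854274) shared all their windows. HIST2H3C measured 190, 236 and 200 CPM in the knockdown and 186, 170 and 166 CPM in the control, without overlap (log2 fold change 0.26, edgeR adjusted p = 0.190). HIST2H3D (chr1:149813271-149813681) measured 46.4, 53.6 and 49.4 CPM in the knockdown and 43.8, 37.5 and 39.7 CPM in the control, without overlap (log2 fold change 0.31 ± 0.08 SE, edgeR adjusted p = 0.112). HIST1H3B, the most abundant H3 gene per kb outside that cluster, overlapped between groups at 149, 178 and 156 CPM against 152, 142 and 133 CPM (log2 fold change 0.18, edgeR adjusted p = 0.325). The testis member HIST3H3 had the largest fold change of the members with a mean count of at least 20, 0.74, but on 13 to 37 counts a library, with overlapping groups and a 95% interval from -0.15 to 1.64. The median of the class was 0.18, and 5 members (35.7%, against 9.55% of all genes) did not overlap with the knockdown higher. These include both of the copies HIST2H3A and HIST2H3C. The class sum overlapped between groups, at 1145, 1380 and 1204 CPM in the knockdown and 1173, 1058 and 1027 CPM in the control.

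H4 had 13 tested members, all with a fold change above 0 and a median of 0.20. HIST1H4B (chr6:26026815-26027252) measured 49.1, 55.2 and 59.8 CPM in the knockdown and 44.7, 43.5 and 36.9 CPM in the control. Its groups did not overlap, and its log2 fold change, 0.39 ± 0.09 (SE; edgeR adjusted p = 0.0798), was the largest in the class. HIST2H4A and HIST2H4B, copies that differed by at most 0.399% in counts, each differed by 0.27 in log2 (edgeR adjusted p = 0.157 and 0.161). HIST2H4A measured 144, 160 and 160 CPM in the knockdown and 141, 128 and 115 CPM in the control, with knockdown a just above control a. HIST1H4K and its copy HIST1H4J overlapped between groups, with HIST1H4K at 102, 123 and 117 CPM against 113, 107 and 83.3 CPM (log2 fold change 0.17, edgeR adjusted p = 0.493). The class sum was 838, 954 and 969 CPM in the knockdown and 868, 801 and 697 CPM in the control, which overlapped.

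The linker histone H1 genes had a class median of 0.27, with all 6 tested members above 0. At an unadjusted p under 0.05, 5 were higher, against 6.68% of all genes. With the GC trend of other genes removed the H1 median was 0.17, against 0.07 for H2A, 0.17 for H2B, 0.12 for H3 and 0.16 for H4, and without knockdown b it was 0.18, below the 0.22 of H4. HIST1H1B (chr6:27866849-27867529) measured 285, 305 and 246 CPM in the knockdown and 239, 218 and 217 CPM in the control. Its groups did not overlap, and its log2 fold change was 0.31 ± 0.08 (SE; edgeR adjusted p = 0.119). HIST1H1C measured 208, 231.5 and 178 CPM in the knockdown and 174, 174 and 163 CPM in the control, also without overlap (log2 fold change 0.27, edgeR adjusted p = 0.190). HIST1H1E overlapped between groups, since knockdown c at 138 CPM lay below control a at 146 CPM (log2 fold change 0.28, edgeR adjusted p = 0.216). With the GC trend removed, HIST1H1B was at 0.20, HIST1H1C and HIST1H1E at 0.17, and HIST1H1C was at 0.17 without knockdown b. The class sum was 930, 1007 and 803.0 CPM in the knockdown and 802.9, 737 and 733 CPM in the control, so knockdown c and control a were practically level. Whether the class medians differ from each other was not tested.

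**Figure D3:**
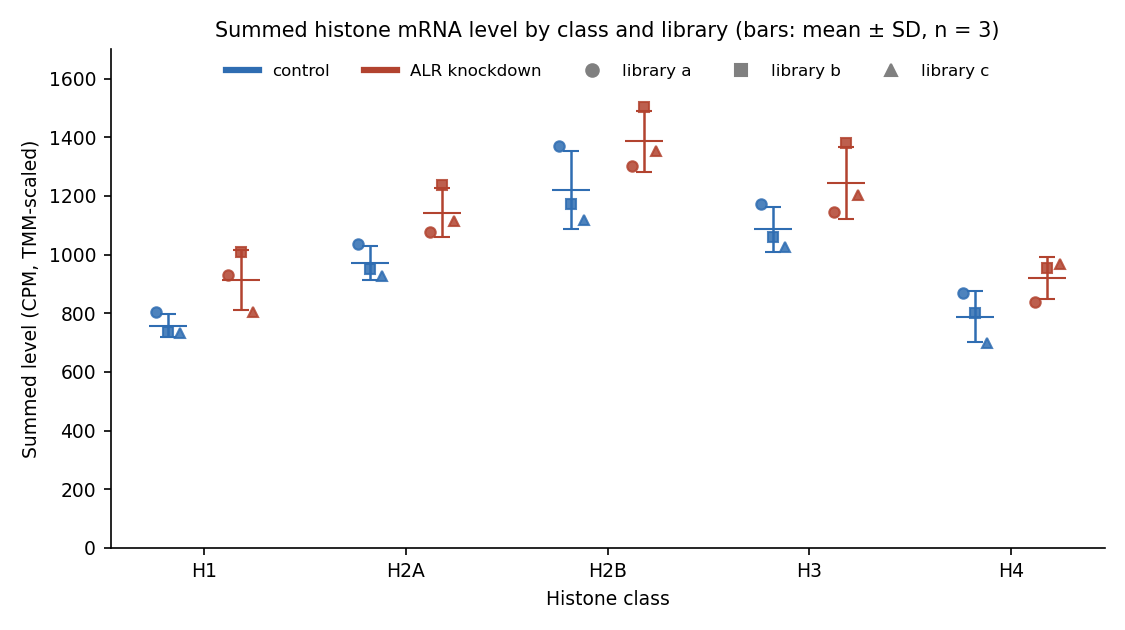
Summed level of each histone class (y axis, CPM on the TMM scale, starting at 0) in the 3 control libraries (blue) and the 3 knockdown libraries (red), with the mean and SD of each group. H1 and H2A do not overlap between groups, H1 narrowly, while H2B, H3 and H4 overlap through control a.

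The classes differed in their pattern over the libraries. Measured as each gene's log2 deviation from its own mean over the 6 libraries, the median over all tested members was highest in knockdown b (0.21) and lowest in control c (-0.19), with knockdown a at 0.01 and control a at 0.04. Knockdown c split the classes: the H1 median there was -0.06 and the H4 median 0.19. In knockdown a the H1 median was 0.17 and the H4 median -0.01.

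**Figure D4:**
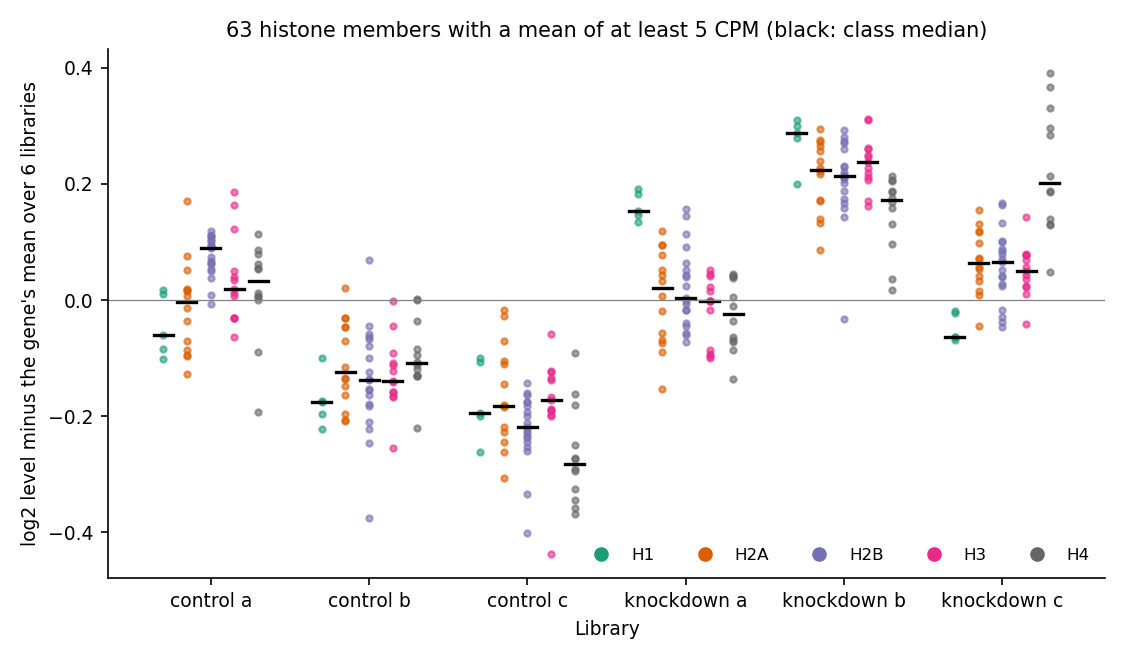
Deviation of each of 63 members with a mean of at least 5 CPM from its own mean over the 6 libraries (y axis, log2), by library (x axis) and class (colour), with the class median in black. H1 lies above the other classes in knockdown a and below them in knockdown c, where H4 is highest.

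The members were also compared by position. The HIST1 genes on chromosome 6 had 51 tested members with a median log2 fold change of 0.18, of which 12 (23.5%, against 9.55% of all genes) did not overlap with the knockdown higher and 1 with the knockdown lower. The HIST2 genes on chromosome 1 had 15 tested members with a median of 0.27. Of these, 10 were higher at an unadjusted p under 0.05 (66.7%, against 6.68% of all genes). The groups of 9 did not overlap with the knockdown higher (60%, against 9.55% of all genes). The HIST2 sum was 1474, 1702 and 1536 CPM in the knockdown and 1418, 1272 and 1233 CPM in the control, while that of HIST1 overlapped between groups. HIST2 holds 3 of the near-identical pairs, each counted as 2 members here, and both rows of each pair enter the sum. The 4 tested HIST3 genes had a median of 0.31, and HIST4H4, the only HIST4 gene, had 0.21. Within chromosome 6, where the genes fall into 3 groups separated by over 500 kb, the medians were 0.16 for 32 members, 0.19 for 4 and 0.23 for 15, in order of coordinate. Differences between these positions were not tested.

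Members whose reads could be shared with another gene were set apart. The 33 tested members that share no 50-base window with another member had a median of 0.18, and 31 were above 0. The 32 that also have no exonic overlap with another gene had a median of 0.18, with 30 above 0, and their summed level did not overlap between groups. A set of 8 members known for polyadenylated transcripts, among them HIST1H1C, HIST1H2BK and HIST2H2BE, had a median of 0.18, and the other 63 tested members 0.19. The groups did not overlap, with the knockdown higher, for 1 of the 8 (12.5%) and 33.3% of the others, against 9.55% of all genes. The same held for 21.2% of tested members sharing no window and 39.5% of those sharing some. Whether these sets differ was not tested.

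Gene properties moved with the fold change across the other genes. Members are short, with a median span of 642 bases, and GC-rich, with a median of 57.2% in the longest transcript. Among other genes the median log2 fold change was -0.06 at a GC content under 40%, 0.08 at 55% to 60% and 0.12 at 60% to 65%. It was 0.02 for a span under 1 kb and 0.08 from 1 to 3 kb. For the 404 other protein-coding genes with a span under 3 kb it was 0.10. Of these, 11.1% did not overlap with the knockdown higher, near the 9.55% of all genes. The median deviation of the 404 genes was highest in knockdown b (0.15) and lowest in control c (-0.09), as for the members. With the GC trend of the other genes removed in each library, the members' median was 0.15 with 63 of 71 above 0 and 16 at an unadjusted p under 0.05. Of the 22 members named by rule, 13 then lay closer to 0 by over 1.5 times and 1, HIST1H2BB, further from it. HIST1H2BK, for example, was at 0.07 and HIST1H2AE at 0.08, while HIST1H4B was at 0.33 and HIST2H4A at 0.27. With the span trend removed the median was 0.16 with 69 above 0. Span and GC were known for 81.3% of the tested genes. What part GC content plays in the lean beyond this was not tested.

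Genes that act on histone mRNA were read as lists. For histone transcription and the histone locus body, 8 genes were tested, none passed (edgeR, none at an unadjusted p under 0.05, none by DESeq2), and 3 were above 0 with a median of -0.03. NPAT, the coactivator that turns on histone genes in S phase, measured 92.4 CPM ± 2.43 in the knockdown and 95.9 CPM ± 6.34 in the control (SD, n = 3; log2 fold change -0.05). For the 3′ end processing of histone pre-mRNA, none of 11 passed by the same measures and 7 were above 0 with a median of 0.05, among them ZNF473, a component of the processing machinery, at 0.17. SLBP measured 74.8 CPM ± 4.23 and 75.1 CPM ± 2.998 (log2 fold change -0.005, 95% interval -0.15 to 0.14), while the U7 RNA gene RNU7-1 was at 0 in every library. For decay and translation, none of 6 passed by these measures and 1 was above 0, with a median of -0.04. ERI1, an exonuclease that trims histone mRNA ends, measured 60.5, 61.8 and 64.3 CPM in the knockdown and 64.3, 67.3 and 69.1 CPM in the control, or -0.10 in log2 (edgeR adjusted p = 0.491).

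Genes of S phase and of histone handling gave the nearest comparison. Of 19 tested S-phase genes none passed by edgeR, and 17 were above 0 with a median of 0.13. At an unadjusted p under 0.05, 6 were higher, against 6.68% of all genes. DESeq2 called 2 of the 19 higher, GINS2 and MCM2, where 0.735% of all genes were called higher. GINS2, a subunit of the replicative helicase complex, measured 42.7, 38.5 and 32.9 CPM in the knockdown and 30.1, 29.4 and 30.3 CPM in the control (log2 fold change 0.35, edgeR adjusted p = 0.107). TK1, which makes thymidine monophosphate, was at 0.26 in log2 (edgeR adjusted p = 0.114), and MCM2, a helicase subunit, 0.23 (edgeR adjusted p = 0.159). Of 12 replacement histone genes, which are made outside S phase as well, none passed by edgeR or DESeq2, 2 were at an unadjusted p under 0.05, and 9 were above 0 with a median of 0.09. H1F0, a replacement linker histone, was at 0.26 (edgeR adjusted p = 0.231) and H2AFX at 0.17 (edgeR adjusted p = 0.348). Of 19 tested histone chaperone genes none passed by edgeR or DESeq2, 16 were above 0 and the median was 0.08, with SSRP1 and ATRX at an unadjusted p under 0.05. SSRP1, a subunit of FACT, was at 0.19 and ATRX, which works with DAXX on H3.3, at -0.16, both with groups that did not overlap (edgeR adjusted p = 0.238 and 0.271). In other settings edgeR called GINS2, TK1 and H1F0 without a filter, where 1064 of 32300 genes were called. Of the genes named here it called SSRP1, ATRX and GINS2 without knockdown c, where 1309 of 20456 genes were called.

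RNAs that are made without a poly(A) tail by other routes were set beside the histones. RN7SL2, the RNA of the signal recognition particle, measured 2073, 2593 and 2430 CPM in the knockdown and 2436, 1488 and 1424 CPM in the control. Control a lay above knockdown a here, as it did for the H2B, H3 and H4 sums, and RN7SL2 was far lower in the other control libraries. RN7SK went the other way between groups, at 1637 CPM ± 220 in the knockdown and 1778 CPM ± 426 in the control (SD, n = 3). Its log2 fold change was -0.12, as was that of SNORD3A. None of the 10 tested genes of this list passed by edgeR or DESeq2, 1 was at an unadjusted p under 0.05 and 6 were above 0, with a median of 0.11, and the list summed to 4082 to 5137 CPM in the knockdown and 3407 to 5286 CPM in the control libraries. EdgeR called RN7SL2 without a filter, where 1.25% of all genes were called higher. It also called RN7SL2 without control a, where 1 of 20413 tested genes was called higher. The part that the recovery of RNA without a tail plays in the histone values was not tested.

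**Figure D5:**
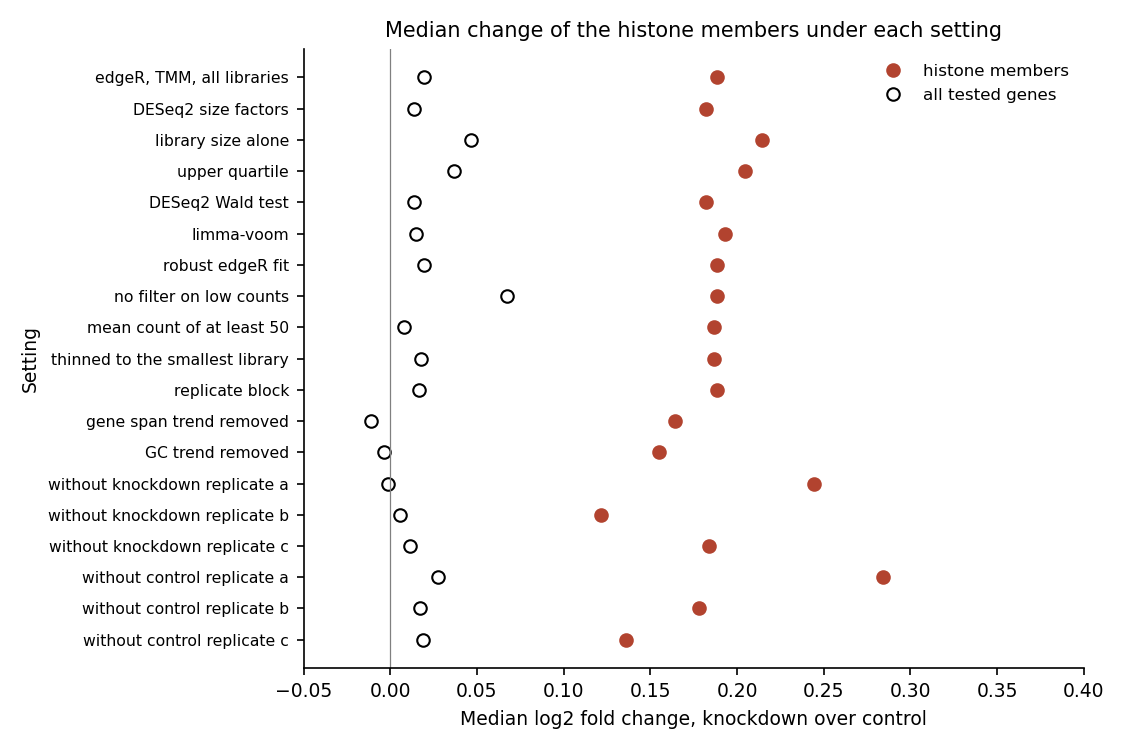
Median log2 fold change (x axis) of the histone members (filled) and of all tested genes (open) under each of 19 settings (y axis). The members' median lies between 0.12 and 0.28 and above the median of all genes in each setting, and it moves most when a library is left out.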

How the data were processed

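RNA from 6 libraries (3 knockdown, 3 control) was analysed from the table of read counts per gene symbol that the authors deposited. The counts were whole numbers with unequal library totals, so no scaling was apparent. The submitters' processing notes name Trimmomatic 0.39, STAR 2.7.8a, featureCounts, Subread 2.14.2 and hg38. The annotation, strand setting and treatment of multi-mapping reads are not given in the sources used here. Genes were filtered with filterByExpr, scaled by TMM and tested with edgeR 4.0.16 (R 4.3.3, quasi-likelihood, group as the only term, two-sided). P-values were adjusted by the Benjamini-Hochberg method over all 19721 tested genes, with a threshold of 0.05. CPM are library-scaled counts, computed with TMM factors. The test was checked on simulated data.

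Members were matched to GENCODE release 29 (all 89 rows) for class, biotype, coordinates (hg38) and stem-loops, and to RefSeq for promoters. A stem-loop is the consensus of a stem of 6 base pairs and a loop of 4 bases. Members count as near-identical copies where they share over 60% of 50-base windows and their counts differ by at most 1.14% in every library. Named members are the 3 with the highest level per kb of coding length in each class, the 6 of lowest p, and, among those with a mean count of at least 20, up to 3 of largest rise and up to 3 of largest drop (only 2 were below 0). Members named for a position, an overlap, a stem-loop, a promoter or a low level were chosen after their values were seen. From each other list the 3 genes with the smallest p could be named, and SLBP and RNU7-1 were added. RN7SK and SNORD3A were added after their values were seen. The members and the lists were chosen with earlier results of these data known. Alternatives were DESeq2 1.42.0, limma-voom (limma 3.58.1), other scalings and filters, thinning, a replicate block and leaving out each library, and, added after the data were seen, the test over genes with a known span and GC content, and removal of the trend with either (natural splines with 5 degrees of freedom fitted on genes that are not members). Promoters, RNA levels and GC values are given as descriptions. The order of chromosome 6 groups follows hg38 coordinates.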

Additional observations from a re-analysis of the deposited data

How the results depend on the processing

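The members' median log2 fold change stayed between 0.12 and 0.28 and above 0 in all 18 alternatives, and that of their summed level between 0.15 and 0.29 in the 10 alternatives run for it. The count of members called was 0 under edgeR with TMM, DESeq2 size factors, thinning and removal of the GC trend. It was 2 with library size alone, upper-quartile scaling, limma-voom, the robust fit or a mean count of at least 50. It was 9 with DESeq2, 19 without a filter and 1 with the span trend removed. All these calls were higher in the knockdown. With the span trend removed, 61 of 16036 genes were called higher. Leaving out a library gave 0 to 6 calls, the 6 without knockdown c, and 26 to 1309 calls over all genes. Over all genes, 155 calls became 536 with DESeq2, 1064 without a filter and 238 with either trend removed. The trends were removed over 16036 genes, and the unaltered test adjusted over those genes called 137. HIST1H2BB turned from -0.02 to 0.0076 with library size alone, and ranged from -0.094 to 0.034 over the libraries left out, turning without control a (0.034) and without control b (0.0028). The cause was not tested.

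The labels do not say whether the letters a, b and c pair the libraries. Between the groups, the correlations of deviations for the same letter were 1.23e-05, 0.116 and -0.0251. These 3 values cannot settle whether the libraries were paired. With the replicate block, 3 members (HIST2H2AA3, HIST2H2AA4 and HIST1H4B) and 393 genes were called, against 0 members and 155 genes without it. The 3 members were higher in the knockdown, as were 73 of the 393 genes. Members with under 50 counts a library, such as HIST3H3 and HIST1H2BA, are limited by depth.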

Other observations

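POU5F1, the gene of the OCT4 factor that binds octamer sequences, measured 120, 152 and 127 CPM in the knockdown and 114, 87.8 and 97.4 CPM in the control, without overlap. Its log2 fold change was 0.42 (edgeR adjusted p = 0.0948), and DESeq2 called it higher, as it did 0.735% of all genes. A link between POU5F1 and the histone members was not tested.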
